A study of Rattus norvegicus with 241 samples.

Results

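The genes described here are SELE, SELP, ICAM1, VCAM1 and VWF, the endothelial selectins, the immunoglobulin-type adhesion receptors that act after them, and von Willebrand factor. They are 5 of the 21707 genes in the tables, taken by name from every bulk and single-cell table with the case of the symbol ignored. They were chosen by their values in sorted basal cells of young ACI rats at day 0. That contrast is therefore given as values with no test. The measured questions are which cells of the whole mammary gland held their RNA, how much of it was found in cells sorted as basal, luminal or leukocyte, and whether either differed between rats given an inhibitor of the TGFβ receptor and rats given vehicle.

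Mammary cells came from rats of the inbred ACI and the outbred SD strain that received either vehicle or 75 mg/kg TGFBRi by gavage for 10 days, or for 21 days in the estradiol experiment. TGFBRi is LY2157299, which blocks the kinase of the type I TGFβ receptor. Bulk RNA-seq gave 202 libraries and single-cell RNA-seq gave 39 tables. Basal cells were sorted as CD24+CD29high and luminal cells as CD24+CD29low, both from cells negative for CD31, the endothelial surface protein encoded by PECAM1, and for CD45, the leukocyte marker. CD45+ cells were kept as leukocytes, with no CD31 gate stated for them. All rats were virgin unless called parous. Young peripubertal ACI rats gave basal, luminal and CD45+ cells from 3 rats per treatment at each of 3 times, days 0, 7 and 14 after dosing ended, and young peripubertal SD rats gave them from 4 rats per treatment on day 0. The labels call 2 of those 4 TGFBRi-treated SD rats weak and 2 strong responders, and they were kept as 1 group. Adult ACI rats on day 0, virgin or parous, numbered 4 per group, except for CD45+ cells of 3 TGFBRi-treated virgin and 2 vehicle parous rats. SD rats treated when young and given the carcinogen NMU gave normal glands on day 87 from 3 tumor-bearing vehicle, 3 tumor-bearing TGFBRi-treated and 3 tumor-free TGFBRi-treated rats. NMU-induced tumors were sorted into EPCAM+ and CD45+ cells, from 3 rats per treatment. ACI rats dosed for 21 days gave luminal and CD45+ cells after tumors had developed: without an estradiol (E2) pellet from 4 vehicle and 3 TGFBRi-treated tumor-free rats, and with a pellet from 4 tumor-bearing vehicle, 4 tumor-free TGFBRi-treated (1 of them the mean of 4 libraries of its parts) and 2 tumor-bearing TGFBRi-treated rats. Sorted single cells came from 3 rats per treatment in ACI and from 3 vehicle and 6 TGFBRi-treated SD rats, and unsorted whole glands from 3 vehicle and 6 TGFBRi-treated SD rats, all young and on day 0.

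Leukocytes leave the blood mainly through postcapillary venules. E-selectin (SELE) and P-selectin (SELP) on the venular wall catch and slow flowing leukocytes by their carbohydrate ligands, and ICAM1 and VCAM1, which bind leukocyte integrins, then hold them. P-selectin is stored with VWF, the protein that binds platelets to an injured wall, in the Weibel-Palade bodies of endothelial cells, and platelets hold both as well. SELE, ICAM1 and VCAM1 are textbook genes of the NF-kB response to inflammatory cytokines, and ICAM1 and VCAM1 are also made by other cells, ICAM1 by epithelium and leukocytes and VCAM1 by fibroblasts and macrophages.

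The promoters are shown because SELE and ICAM1, and elsewhere ICAM1 and VCAM1, moved in the same direction with treatment in the whole gland. These are the 250 bases before the start of each gene in the rat RefSeq annotation (GRCr8), 5′ to 3′ on the strand of the gene, at chr13:78936264-78936513 (plus strand) for SELE, chr8:27829595-27829844 (plus strand) for ICAM1 and chr2:206742784-206743033 (minus strand) for VCAM1. Capitals mark matches on either strand to TATAAA and to the NF-kB consensus with T or G allowed at its first base. The tables of promoters held no entry for SELP and VWF.
SELE: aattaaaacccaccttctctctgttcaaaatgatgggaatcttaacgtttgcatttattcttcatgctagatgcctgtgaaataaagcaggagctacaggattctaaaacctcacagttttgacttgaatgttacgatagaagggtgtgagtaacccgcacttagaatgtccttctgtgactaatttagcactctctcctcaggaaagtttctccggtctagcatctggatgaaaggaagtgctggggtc
ICAM1: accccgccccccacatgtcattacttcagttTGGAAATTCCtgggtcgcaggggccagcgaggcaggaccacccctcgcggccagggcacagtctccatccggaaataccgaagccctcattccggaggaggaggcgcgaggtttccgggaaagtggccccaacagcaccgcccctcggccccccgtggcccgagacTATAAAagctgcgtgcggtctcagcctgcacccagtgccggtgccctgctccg
VCAM1: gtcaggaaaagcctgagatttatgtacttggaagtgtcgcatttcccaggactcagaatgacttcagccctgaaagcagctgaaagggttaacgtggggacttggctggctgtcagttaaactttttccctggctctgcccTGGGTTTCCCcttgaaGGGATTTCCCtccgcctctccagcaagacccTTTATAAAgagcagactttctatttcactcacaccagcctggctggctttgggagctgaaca
The ICAM1 window held the NF-kB match TGGAAATTCC, which began 219 bases before the start, and TATAAA at 53 bases. The VCAM1 window held TGGGTTTCCC at 109 bases and GGGATTTCCC at 93 bases, the latter on both strands, and overlapping TATAAA matches on the forward and the reverse strand at 60 and 62 bases. The SELE window held neither set of letters. The window is placed by the annotated start, and its lack of a match says nothing of bases outside it. The NF-kB letters occurred in 13.6% and TATAAA in 12.9% of all 33469 promoter windows of this length, so that a match is a description of the sequence and no more.

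Bulk libraries held 4.19 to 52.3 M reads on genes. The 2 shallowest were basal libraries of TGFBRi-treated young ACI rats at day 0, with 4.19 and 6.56 M reads. The other library of that group held 15.1 M reads, and those after vehicle 12.4 to 18.8 M reads. In adult virgin ACI rats, vehicle rat N1N stood apart in all 3 of its sorts, as described below. The whole-gland tables held 103524 cells, 7900 to 16424 per rat with median depths of 2820 to 3885 UMIs, and the sorted single-cell sets held 9880 basal and 6882 luminal cells from ACI rats, with 15982 and 23784 from SD rats. Pairs of libraries shared at most 2.51% of cell barcodes in the whole gland and 0.516% in sorted cells. Single-cell levels are given in CPM, the UMIs of a gene per 1000000 UMIs of the same cells, and M stands for 1000000 reads. In the whole gland, veh and ly name vehicle and TGFBRi-treated rats as the labels do.

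In the whole gland, the RNA of both selectins lay almost wholly in endothelial cells. The endothelial-like class, named from CDH5, TEK, KDR, FLT1, EMCN and other endothelial markers, held 8942 cells, 8.64% of all. PECAM1 and ROBO4 of the 16 endothelial markers were not in the whole-gland tables. It held 87.6% of 10467 SELE UMIs, with 73.9 to 92.8% in single rats. It held 86.5% of 40744 SELP UMIs, with 81.6 to 90.1% in single rats, and 75.4% of 19057 VWF UMIs. VCAM1 and ICAM1 were shared out differently: the class held 34.2% of 18904 VCAM1 UMIs and 15.5% of 193792 ICAM1 UMIs. The 5 genes were left out of the genes used to cluster the cells, and these shares describe where the UMIs lay and test nothing.

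Within the endothelium, the selectins marked the cells with venular markers. The venular-like cells (NR2F2, EPHB4, LRG1, IL1R1 and CPE detected, ACKR1 not in the tables) numbered 3609, 3.49% of all cells. They held 83.8% of the SELE and 83.8% of the SELP UMIs of the gland, 60.7% of the VWF, 29.5% of the VCAM1 and 13% of the ICAM1 UMIs. A cluster of 1701 cells with endothelial and pericyte markers, kept out of the endothelial-like class, held another 7.43% of SELE, 8.73% of SELP and 14.8% of VWF UMIs. An unnamed group of 210 endothelial cells led by GLYCAM1, CCL21 and FUT7, genes known from high endothelial venules, read 126 CPM for SELE and 341 for SELP but only 4.86 for VWF.

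The order of the cell classes differed from gene to gene, here in CPM of the 3 vehicle rats. SELE read 186, 267 and 405 CPM in venular-like cells, 2.91 to 7.93 in capillary-like and 7.53 to 20.4 in lymphatic-like cells, and at most 3.74 in the other named classes. Venular-like cells of every rat were above all other classes, while capillary-like and lymphatic-like cells overlapped. SELP was likewise highest in venular-like cells at 1218 to 2646 CPM, with 9.25 to 33.1 in capillary-like and 3.40 to 44.97 in lymphatic-like cells, which overlapped. In luminal-like and T or NK-like cells, which should hold little of it, SELP stood at 0.687 to 5.61 CPM. VWF read 405 to 720 CPM in venular-like, 109 to 132 in capillary-like and 11.9 to 60.3 in lymphatic-like cells, and those ranges did not overlap. VCAM1 was highest in venular-like cells at 250 to 402 CPM, followed by fibroblast-like cells at 106.6 to 128 CPM, a range within those of capillary-like cells (39.1 to 137) and lymphatic-like cells (11.3 to 185). Macrophage-like cells stood at 17.7 to 94.3 CPM, and basal-like and luminal-like cells at 0.211 to 2.27 CPM. The fibroblast-like cells held 42.4% of VCAM1 UMIs. ICAM1 had no single source. Lymphatic-like cells, at 1445 to 2151 CPM, lay above venular-like cells at 985 to 1228, and neutrophil-like cells at 909 to 1905 overlapped both. Macrophage-like, dendritic-like and pericyte-like cells followed at 308 to 693 and overlapped with epithelium, at 285 to 461 in basal-like and 200 to 330 in luminal-like cells. Luminal-like and basal-like cells nonetheless held 18.7% and 17.9% of all ICAM1 UMIs.

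**Figure D1:**
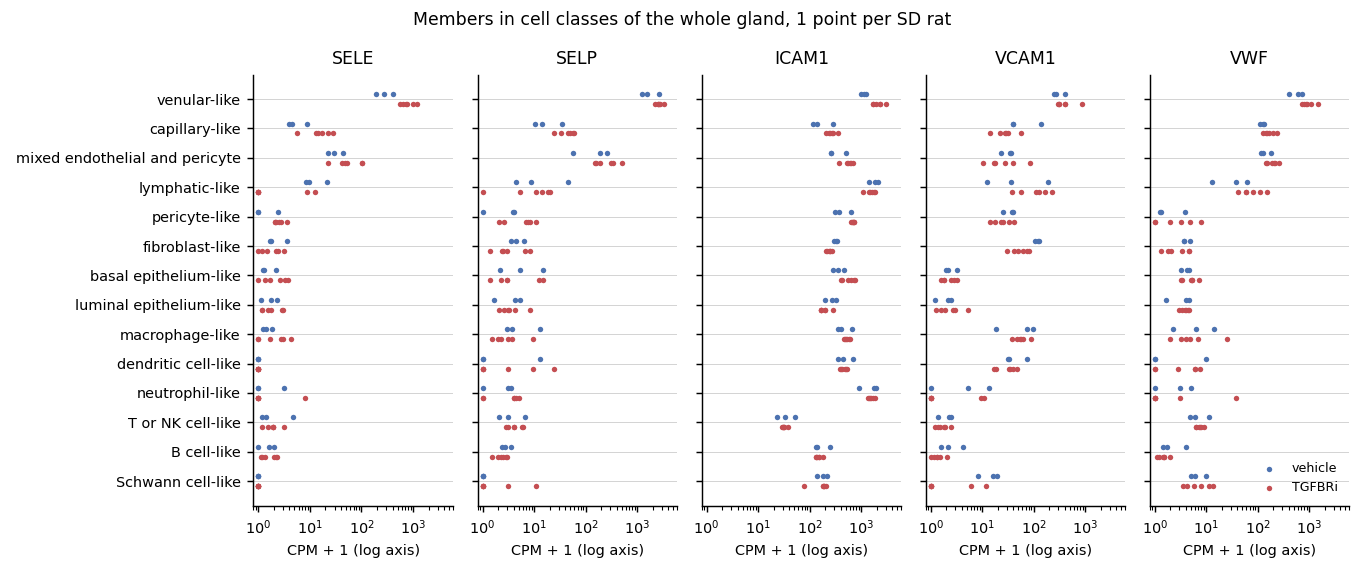
Level of each gene in the cell classes of the whole gland, in CPM plus 1 on a log axis, with 1 point per rat for 3 vehicle and 6 TGFBRi-treated SD rats. SELE and SELP stand highest in the venular-like class in every rat, whereas ICAM1 is spread over lymphatic-like, neutrophil-like, venular-like and epithelial classes.

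Across 42 whole-gland clusters, the genes with the most similar pattern, by Pearson correlation of log2(CPM + 1) among 15309 genes, placed the selectins next to each other. SELP ranked highest for SELE (r = 0.96) and SELE for SELP, and MADCAM1, the addressin of mucosal venules, TMEM252 and SERPINA3N followed in both lists. AABR07005821.1 completed the list of SELE and FAM110D that of SELP. VWF was closest to NOS3, the endothelial nitric oxide synthase (r = 0.93), then PTPRB, DIPK2B, MALL and WIPF3. VCAM1 was closest to ITGA5, a fibronectin receptor subunit (r = 0.90), then CCL2, PTGS2, ACVRL1 and CLIC2. ICAM1 was closest to NFAT5 (r = 0.83), with AABR07033564.1, MAFG and ITGA5 also in its list. The clusters share libraries, so these values are descriptions.

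In venular-like cells of the whole gland, SELE and ICAM1 were higher after TGFBRi. The SELE level was 186, 267 and 405 CPM in vehicle rats and 553, 646, 723, 753, 993 and 1178 CPM in TGFBRi-treated rats, without overlap. Summed UMIs per rat gave a log2 difference of 1.29 (SE 0.31, edgeR quasi-likelihood, adjusted p = 0.0163, n = 3 and 6). ICAM1 read 985, 1146 and 1228 CPM after vehicle and 1666 to 3043 with a median of 2128 CPM after TGFBRi, again without overlap (log2 difference 0.74, SE 0.17, adjusted p = 0.00440). Of the 11492 genes tested in venular-like cells, 32.9% passed the same threshold of 0.1. SELE and ICAM1 were thus called in a class where a call was common. SELP was 1218, 1570 and 2646 CPM after vehicle and 2230 to 3356 after TGFBRi (log2 difference 0.35, SE 0.21, adjusted p = 0.276). Without vehicle rat veh2, which held the highest vehicle value, SELP passed at a difference of 0.73 (adjusted p = 0.00116, and 0.00116 to 0.631 over its 12 alternatives). VWF read 405 to 720 CPM after vehicle and 729 to 1462 after TGFBRi, a difference of 0.54 (adjusted p = 0.114) without overlap. VWF passed in DESeq2 (adjusted p = 0.0355) and without any of veh4, ly4 or ly11, with 0.0355 to 0.301 over its 12 alternatives. VCAM1 read 250 to 402 and 298 to 865 CPM (difference 0.28, adjusted p = 0.649). All 5 differences were positive, with a median of 0.54 on the log2 scale, against -0.03 over all genes tested.

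**Figure D2:**
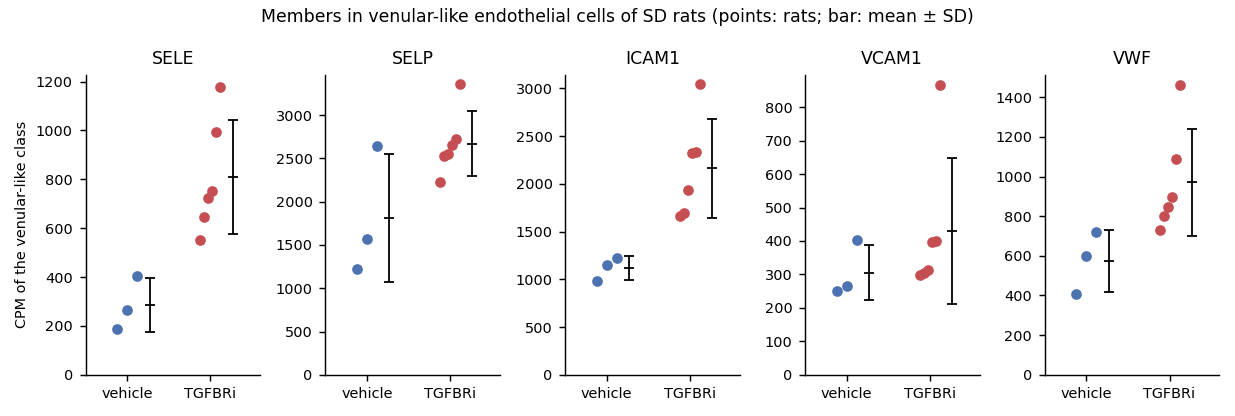
Level of the 5 genes in venular-like cells of the whole gland by rat, in CPM, with the mean and SD of 3 vehicle and 6 TGFBRi-treated rats. SELE, ICAM1 and VWF show no overlap between treatments, and 1 TGFBRi-treated rat lies far above the others for VCAM1.

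More venular-like cells also carried a SELE UMI. With each cell thinned to 1000 UMIs, 9.62, 17.1 and 16.4% of venular-like cells held one in vehicle rats and 26.6 to 46.5% in TGFBRi-treated rats, against at most 0.250% in luminal-like cells. Without thinning the shares were 20.4 to 28.5% and 42.1 to 60%, at median depths of 1770 to 4393 UMIs per cell. For SELP the thinned shares were 41.7 to 47.7% after vehicle and 60.6 to 69% after TGFBRi.

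Venular-like cells of the 2 treatments fell into different groups when they were clustered more finely. A subcluster led by AKR1B8, CXCL3, OLR1 and SLC7A11 held 89.02, 87.4 and 56.5% of the venular-like cells of vehicle rats veh1, veh2 and veh4 and 0 to 1.79% of those of TGFBRi-treated rats. A subcluster led by ACKR4, PGM5 and CADM3 held 6.27, 4.90 and 36.5% in the same vehicle rats and 86.6 to 93.9% after TGFBRi. Over 5 seeds of the clustering, an alternative added after the data were seen, the first share was 87.1 to 92.2% in veh1 and veh2, 45.2 to 79.4% in veh4 and at most 3.16% after TGFBRi. The labels give no processing date or batch for these tables, so that treatment and a batch that coincides with it cannot be told apart. Other genes of the same cells moved beside the 5, in a class where 32.9% of all genes passed. Of 16 measured genes of the NF-kB and cytokine response, 8 fell and 0 rose, with a median log2 difference of -0.36, among them the neutrophil chemokine CXCL2 (-2.88), the granulocyte growth factor CSF3 (-2.35), IL1B (-2.48) and the NF-kB inhibitor NFKBIA (-0.38). The summed level of this list was 25314, 47209 and 15343 CPM in veh1, veh2 and veh4 and 13918 to 15890 CPM after TGFBRi, so that veh4 lay within the TGFBRi range. SELE and ICAM1, known targets of that response, rose in these cells. Of 8 immediate early and stress genes that mark dissociation, 4 rose (FOS, FOSB, ATF3 and ZFP36), and the summed level of the list was 4582 to 5744 CPM after vehicle and 6458 to 8257 CPM after TGFBRi, without overlap. The capillary sum (4574 to 5919 against 7355 to 10845 CPM) and the endothelial sum (7826 to 8131 against 8314 to 9998 CPM) did not overlap either. Of 14 endothelial markers, EMCN, ESAM, MMRN2 and TEK rose and CLDN5 and EGFL7 fell, and of 5 venular markers EPHB4 rose. The neutrophil markers S100A8 and S100A9 both fell, and 3 of 6 measured luminal markers (CLDN3, CLDN4 and EPCAM) and both measured basal keratins (KRT14 and KRT17) fell. The basal epithelium sum was 7.22, 46.2 and 8.18 CPM in veh1, veh2 and veh4 and 1.71 to 8.38 CPM after TGFBRi, so that veh2 alone stood apart. The part of these in the selectin and ICAM1 differences was not tested.

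Called neighbours of the 5 genes in the adhesion pathway moved both ways in venular-like cells, where 32.9% of all genes passed. Of 11 other endothelial adhesion genes measured, 4 rose and 2 fell: ICAM2, a constitutive ligand of leukocyte integrins, by 1.5 on the log2 scale (adjusted p = 1.03e-06), MADCAM1 by 1.27 (0.0933), JAM2 by 0.67 (0.00147) and CD34 by 0.52 (0.0135), while JAM3 stood at -0.99 (0.0263) and CD99 at -0.39 (0.00603). Of 8 genes of Weibel-Palade bodies and of VWF binding and cleavage, RAB3D (2.15) and RAB27A (1.84), small GTPases of granule release, rose and the granule membrane protein CD63 (-0.44) fell. Of 11 genes listed as leukocyte ligands and receptors, GLG1, an E-selectin ligand (0.83), rose and the integrin subunit ITGB1 (-0.40) fell. ESAM (0.38), also on that list, is the endothelial marker already counted above. Of 6 glycosyltransferases of selectin ligands, GCNT1 rose (2.90) and ST3GAL6 fell (-0.59). RAB3D, RAB27A, CD63, GLG1, ITGB1, GCNT1 and JAM2 were called in the same direction in capillary-like and fibroblast-like cells. RAB3D stood there at 1.35 and 1.31 and CD63 at -0.87 and -0.47. In those classes 22.7% and 28.8% of all genes passed. ICAM2 was called in capillary-like cells as well (1.04). MADCAM1, CD34, JAM3, CD99 and ST3GAL6 were called in neither.

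The endothelial-like class of the whole gland called the same members as its venular-like part, and other classes varied. In the endothelial-like class as a whole, SELE (1.31, adjusted p = 0.0152) and ICAM1 (0.69, adjusted p = 0.00820) rose, where 32.1% of genes passed. SELP passed there without veh2 (0.77, adjusted p = 0.0478, 0.0478 to 0.798 over its 14 alternatives). VWF passed in DESeq2 (0.56, adjusted p = 0.0483), without the cells of the highest Scrublet scores (0.0778) and with the mixed endothelial and pericyte cluster (0.0762), with 0.0483 to 0.343 over its 14 alternatives. The venular-like part of this class held most of its SELE and ICAM1 UMIs. In capillary-like cells, where 22.7% of genes passed, SELE stood at 2.91 to 7.93 CPM after vehicle and 4.54 to 26.5 after TGFBRi (1.48, adjusted p = 0.0515). SELP in the same cells read 9.25 to 33.1 and 23.6 to 58.1 CPM (1.11, adjusted p = 0.0583), and VCAM1 fell by 1.40 on the log2 scale (adjusted p = 0.0776). Each of these 3 calls was lost when single rats were left out. The SELE call was lost without veh1 (1.25, adjusted p = 0.192) or veh2 (1.24, 0.188), and when the 6% of cells with the highest Scrublet doublet scores were left out (1.39, 0.110). The SELP call was lost without any of veh1, veh4, ly4, ly6 or ly11 (adjusted p from 0.105 to 0.214) and the VCAM1 call without any of veh2, ly1, ly2, ly6 or ly11 (adjusted p from 0.103 to 0.298, with a difference of -0.64 without veh2), or with no filter on low counts (0.139). ICAM1 passed in capillary-like cells without veh4 (0.94, adjusted p = 0.000273, and 0.000273 to 0.744 over its 12 alternatives). The calls over all genes of this class also swung with the vehicle rats. They numbered 2784 with all rats, 1347 without veh1, 1574 without veh2 and 4775 without veh4.

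In fibroblast-like cells, ICAM1 and VCAM1 were lower after TGFBRi, the opposite direction to ICAM1 in venular-like cells. VCAM1 read 106.6, 120 and 128 CPM after vehicle and 28.9 to 80.7 after TGFBRi, without overlap (log2 difference -1.29, SE 0.26, adjusted p = 0.00591). ICAM1 read 298, 329 and 342 CPM and 207 to 270 CPM, also without overlap (log2 difference -0.66, SE 0.15, adjusted p = 0.00725). In this class 28.8% of genes passed. Of 16 NF-kB and cytokine response genes, 12 fell, among them CXCL1 (-2.18), IL6 (-2.15) and CCL2 (-1.37), and IRF1 rose. Of 14 endothelial markers 6 fell, led by KDR (-1.85), and CLEC14A rose, and 7 of 8 dissociation genes rose. Whether these account for the change in VCAM1 or ICAM1 was not tested.

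In epithelium ICAM1 was the member called in the edgeR fit of all rats. In basal-like cells, ICAM1 read 285, 360 and 461 CPM after vehicle and 406 to 775 after TGFBRi (0.72, SE 0.23, adjusted p = 0.0294), where 43.7% of genes passed. The call was lost without veh2 (adjusted p = 0.157, and 0.0112 to 0.157 over its 13 alternatives). In the same cells SELE passed without ly2 (1.96, adjusted p = 0.0664) or veh4 (0.0966), with 0.0664 to 0.404 over its alternatives, and VWF without the cells of the highest Scrublet scores (1.05, adjusted p = 0.0644, 0.0644 to 0.826 over its alternatives). One cluster held 78.1% of basal-like cells of vehicle rats and 0.641% of those of TGFBRi-treated rats, and another held 15.5% and 95.5%. In luminal-like cells ICAM1 fell by 0.51 on the log2 scale (adjusted p = 0.0669, 27.6% of genes passed), a call that was lost when any of veh1, veh4, ly2, ly11 or ly14 was left out (adjusted p from 0.106 to 0.225). In lymphatic-like (16.1% of genes passed), pericyte-like (26.3%), macrophage-like (7.40%) and neutrophil-like cells (4.80%), 0 of 18 member tests passed in edgeR, 2 had an unadjusted p under 0.05, and 0 of 12 passed in DESeq2. SELE and SELP were not tested in neutrophil-like cells, which held 5 and 8 of their UMIs. In pericyte-like cells ICAM1 read 308 to 638 CPM after vehicle and 636 to 735 after TGFBRi (0.45, adjusted p = 0.143), and passed without veh4 (0.86, adjusted p = 3.89e-05, and 3.89e-05 to 0.421 over its 13 alternatives). In the same cells SELE passed without veh4 (adjusted p = 0.00745, 0.00745 to 0.632 over its alternatives) and VCAM1 without ly6 (0.0317, 0.0317 to 0.401). In lymphatic-like cells VWF passed with no filter on low counts (1.05, adjusted p = 0.0106, 0.0106 to 0.413), as did SELE, SELP and ICAM1 with negative differences (adjusted p from 0.0702 to 0.0975).

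Shares of endothelial cells overlapped between the treatments. Endothelial-like cells made up 11% ± 4.68 (SD, n = 3) of cells in vehicle rats, from 6.85 to 16.1%, and 7.12% ± 2.80 (SD, n = 6) in TGFBRi-treated rats, from 4.03 to 10.9% (exact permutation test, two-sided, p = 0.190, adjusted p = 0.321 over 6 shares, smallest possible p 0.0238). Venular-like cells were 43.7% ± 8.28 (SD, n = 3) of endothelial-like cells after vehicle and 37.9% ± 3.69 (SD, n = 6) after TGFBRi (exact p = 0.214, adjusted p = 0.321). Lymphatic-like cells were 0.94% ± 0.251 of all cells after vehicle and 0.610% ± 0.134 after TGFBRi (exact p = 0.0476, adjusted p = 0.286, n = 3 and 6).

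In cells sorted as basal, most selectin UMIs lay in few cells that also carried endothelial RNA. Of 9880 basal cells of ACI rats, 5 held a SELE UMI. Of their 261 SELE UMIs, 257 lay in 1 cell of vehicle rat ACI7, a cell of 41592 UMIs in which 11 of the endothelial markers were detected. The same cell held 149 of the 164 SELP UMIs, which were spread over 7 cells. Of the cells with a UMI, 3 of 5 for SELE and 4 of 7 for SELP carried 0 endothelial markers. Sums per rat followed that cell: SELE stood at 11.8, 0.0953 and 0 CPM in the vehicle rats and at 0 to 0.121 CPM in the TGFBRi-treated rats (adjusted p = 0.253), and SELP at 7.35, 0.114 and 0.0953 against 0 to 0.121 CPM (adjusted p = 0.222). In basal cells of SD rats, 543 SELE UMIs lay in 40 cells, and the 33 of these cells with at least 2 endothelial markers held 98.7% of them. For SELP, 49 of 91 cells held 96.4% of 1232 UMIs. Cells with 0 endothelial markers made up 15.0% of the SD cells with a SELE UMI and 39.6% of those with a SELP UMI. TGFBRi-treated rat SD14 held 295 of the SELE and 743 of the SELP UMIs. Luminal cells held almost none: 2 SELE and 5 SELP UMIs in 23784 SD cells, and in 6882 ACI cells 4 SELE UMIs and 77 SELP UMIs, of which 70 came from 1 cell of TGFBRi-treated rat ACI12 with 12 endothelial markers.

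VWF in sorted basal cells was distributed differently. In ACI basal cells 402 VWF UMIs lay in 378 cells, of which 365 held a single UMI. Of these 378 cells, 89.4% carried 0 endothelial markers, against 75.9% of the SD basal cells with a VWF UMI, and ACI cells with at least 2 of them held 4.73% of the VWF UMIs. In SD basal cells, 54.2% of 367 VWF UMIs lay in such cells. VWF stood at 5.43 to 6.30 CPM in ACI basal cells after vehicle and 3.95 to 4.77 after TGFBRi (adjusted p = 0.361). In SD luminal cells VWF read 1.32 to 1.64 CPM after vehicle and 0.340 to 0.809 after TGFBRi (log2 difference -0.97, SE 0.40, adjusted p = 0.0971), a call that was lost when any of 8 of the 9 rats was left out (adjusted p from 0.103 to 0.214). With all rats, 4654 of 14621 genes passed there, and 3 to 1532 genes without single vehicle rats.

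**Figure D3:**
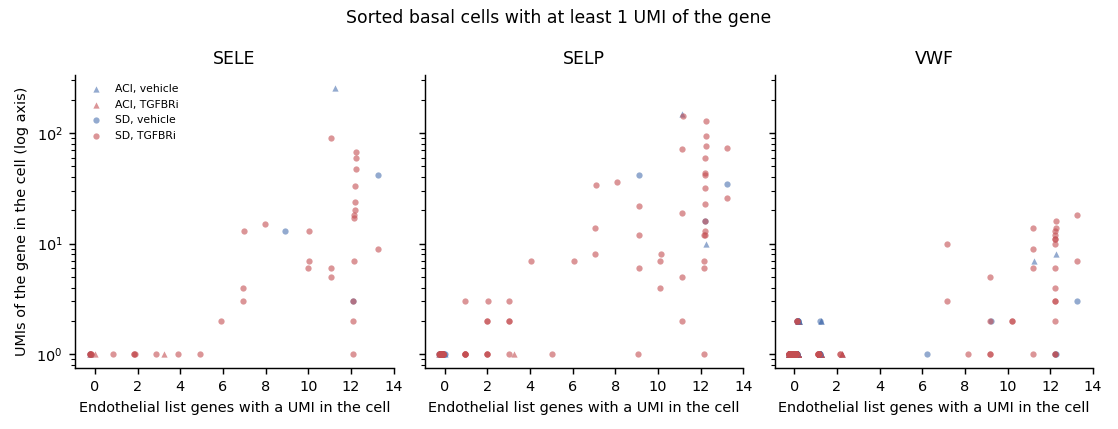
UMIs of SELE, SELP and VWF in each sorted basal cell that holds at least 1 of them, against the number of endothelial markers detected in that cell, for ACI cells (triangles) and SD cells (circles) in the colours of the treatments. High selectin counts lie at 2 or more markers, whereas most cells with a VWF UMI lie at 0 markers.

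The share of sorted basal cells with at least 2 endothelial markers was 0.151% ± 0.262 (SD, n = 3) after vehicle and 0.578% ± 0.391 (SD, n = 3) after TGFBRi in ACI rats. An exact permutation test gave p = 0.200, where 3 rats against 3 cannot go below 0.1. In SD rats it was 0.654% ± 0.550 (n = 3) and 1.11% ± 0.550 (n = 6, exact permutation p = 0.357). With cells thinned to 1000 UMIs the SD shares were 0.366% and 0.401% (exact p = 0.810), and the ACI shares were 0.0337% and 0.0353% (exact p = 1). In sorted luminal cells the unthinned share ran from 0.0989 to 1.09% in ACI and from 0.179 to 2.10% in SD rats. With thinning it was 0 to 0.0647% and 0 to 0.0523%. Luminal cells of rat SD11 held 57 cells with at least 2 markers but 0 SELE and 0 SELP UMIs. The share is therefore no count of endothelial cells. The filters of the deposited tables required keratin reads, so that an endothelial cell with none was not in them.

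ICAM1, by contrast, was detected in 62.9 to 84% of sorted basal cells of each ACI rat and in 57.5 to 84.4% of those of each SD rat. It reached 263 to 327 CPM in ACI basal cells of vehicle rats and 313 to 389 after TGFBRi (log2 difference 0.53, SE 0.12, adjusted p = 0.00650), where 33% of genes passed. In SD luminal cells it read 53.3 to 92.6 CPM after vehicle and 77.6 to 167 after TGFBRi (0.98, SE 0.31, adjusted p = 0.0471, 31.8% of genes passed), and was not called when any of the vehicle rats was left out (differences of 0.78 to 1.10, adjusted p from 0.110 to 0.167). The calls over all genes fell in the same fits. They numbered 3 without SD1, 1432 without SD2 and 1532 without SD3, against 4654 with all rats. In SD basal cells (24.7% of genes passed) and ACI luminal cells (25%), 0 of 9 member tests passed in edgeR, 0 had an unadjusted p under 0.05, and 0 of 8 passed in DESeq2. In ACI luminal cells SELP passed without ACI15 (4.83, adjusted p = 0.0833) or ACI16 (0.0901), VCAM1 without ACI16 (2.06, adjusted p = 0.0788) or ACI8 (0.0920), and ICAM1 without ACI8 (0.45, adjusted p = 0.0940), and adjusted p over the alternatives of these 3 ran from 0.0788 to 0.953. The SELP result rests on 1 cell of TGFBRi-treated rat ACI12, which held 70 of the 77 SELP UMIs. In SD luminal cells 486 of 535 VCAM1 UMIs came from TGFBRi-treated rat SD12, in 353 cells.

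In bulk libraries of sorted basal cells from young ACI rats at day 0, the contrast that led to the choice of these genes, both selectins were far lower after TGFBRi. Values are the authors' normalized reads. SELE stood at 193, 535 and 564 in vehicle rats and at 0, 9.58 and 12.1 in TGFBRi-treated rats, that is 237 to 624 recovered reads against 0, 3 and 6. A count of 0 allows up to 3 reads. SELP stood at 1003, 2280 and 5057 against 46.6, 131 and 143. The groups did not overlap for either selectin. The other members did overlap: ICAM1 at 27602, 30687 and 35983 against 33211, 33877 and 34390, VCAM1 at 77.4, 220 and 372 against 232, 363 and 466.1, and VWF at 133, 256 and 454 against 76, 278 and 286. Of the 15643 genes of this fit, 3.34% passed the threshold of 0.05 in this contrast, from which nothing is read about the members.

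Endothelial RNA itself was present in these basal libraries. The summed normalized values of the endothelial markers, of which these tables held 14, were 1819, 5397 and 11561 after vehicle and 1277, 1797 and 3117 after TGFBRi, and PECAM1 was detected in each library, at 142 to 1148 and 36.2 to 404. Relative to 100 of that sum, SELP stood at 42.2, 55.2 and 43.7 after vehicle and at 1.5, 11.2 and 7.28 after TGFBRi. SELE stood at 4.88 to 10.6 and 0 to 0.946. These ratios come from the libraries that chose the genes and are a description. In the same contrast 12 of 14 endothelial markers had negative differences, and their median was -0.98 on the log2 scale against 0.30 over all genes. The 6 basal epithelium markers had negative differences, and the 8 macrophage markers had positive differences with a median of 3.06. In a bulk library fewer endothelial cells and less RNA per endothelial cell cannot be told apart, here and in each bulk result that follows. Genes of the sum also differed between basal and luminal cells of vehicle rats, in both directions, where 34.5% (ACI) and 54.3% (SD) of genes passed. Basal minus luminal, FLT1 stood at -2.17 in ACI and -1.16 in SD rats, KDR at 2.36 and 3.03. Whether part of the sum came from epithelial cells was not tested.

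**Figure D4:**
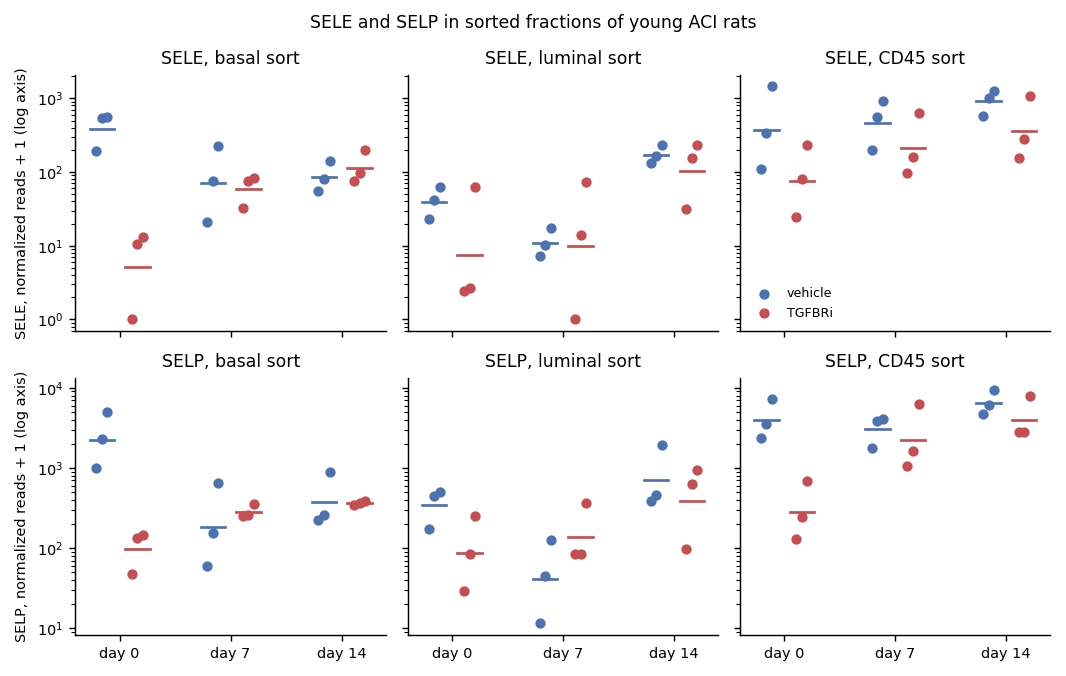
Normalized reads plus 1 of SELE and SELP on a log axis in basal, luminal and CD45+ libraries of young ACI rats at day 0, 7 and 14 after the last dose, with 1 point per rat, 3 rats per group and a line at the mean of the logs. The treatments separate at day 0 in basal cells and overlap at days 7 and 14.

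At day 7 and day 14 the selectin values of both treatments overlapped in basal cells. SELE was 19.8, 75.6 and 223 after vehicle and 31.9, 74.7 and 83 after TGFBRi at day 7 (log2 difference -0.26, SE 0.94, limma, adjusted p = 0.970). At day 14 it was 54.6, 78.4 and 139 against 75.5, 95.4 and 200 (0.42, adjusted p = 1). SELP was 59.3, 152 and 645 against 249, 257 and 357 at day 7 (0.65, adjusted p = 0.933) and 226, 259 and 893 against 342, 362 and 389 at day 14 (-0.04, adjusted p = 1).

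The CD45+ and luminal cells of the same rats gave values for day 0 that are not independent animals. In CD45+ cells, SELP stood at 2379, 3497 and 7220 after vehicle and at 130, 244 and 679 after TGFBRi, without overlap (log2 difference -3.81, SE 0.67, limma, adjusted p = 0.00843). It was the single member to pass there, where 2.85% of 14761 genes passed. The adjusted p was 0.0716 in a model of the 2 day 0 groups alone, and 9.54e-06 to 0.0716 over its 12 alternatives. SELE was 107.5, 337 and 1460 against 23.4, 78.4 and 230 (-2.30, SE 1.00, adjusted p = 0.233), with overlap. ICAM1 stood at 32326 to 113610 against 44834 to 113169 (adjusted p = 1). Endothelial and pericyte RNA was lower in the same libraries: the endothelial sum was 10273, 17643 and 17720 against 4375, 4984 and 7067, the pericyte sum 1408 to 2019 against 299 to 316, and CDH5 (-2.48, adjusted p = 0.0494), PLVAP (-2.67, 0.0115) and SOX18 (-2.95, 0.0346) fell, as did CD34 (-2.45, 0.0228), with 12 of 14 endothelial differences negative and a median of -1.40. Basal epithelium markers were lower too, with 4 of 6 called (KRT5, KRT14, KRT17 and TRIM29), whereas the neutrophil markers S100A8 and S100A9 and GP1BA, a subunit of the platelet receptor for VWF (3.15, adjusted p = 0.0491), were higher. Per 100 of the endothelial sum, SELP stood at 34, 13.4 and 40.9 after vehicle and at 15.5, 2.61 and 3.45 after TGFBRi. Their part in the SELP difference was not tested.

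In luminal cells at day 0, where 1.01% of genes passed, SELP was 173, 450 and 502 after vehicle and 28.4, 84 and 254 after TGFBRi (-1.98, adjusted p = 0.307). SELE was 21.9, 40.6 and 61.1 against 1.42, 1.70 and 61.8 (-2.39, adjusted p = 0.353). The groups overlapped for both genes through 1 TGFBRi-treated rat. In limma 0 of 5 member tests passed, 0 had an unadjusted p under 0.05, and 0 passed in DESeq2.

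In young SD rats the selectins of vehicle and TGFBRi-treated rats overlapped at day 0. In basal cells SELE was 10.2, 31.7, 96.6 and 198 after vehicle and 30.1, 122, 192 and 413 after TGFBRi (1.35, SE 0.95, adjusted p = 0.980). SELP was 87.8, 214, 416 and 837 against 152, 205, 941 and 1197 (0.60, adjusted p = 0.981). In CD45+ cells SELP was 757 to 5277 against 1529 to 6179, with overlap. The strains were not compared by a test. Young SD rats, days 7 and 14, and the other sorts and experiments made 28 further treatment comparisons with 140 tests of a member, of which 0 passed in limma at an adjusted p of 0.05, where 0.0921% of all gene tests did. At an unadjusted p under 0.05 there were 6, and DESeq2 on recovered reads called 3 of 139. The 0.0921% is the share of limma and is no background for the calls of DESeq2. Of all genes, DESeq2 called from 0 of 13110 in basal to 1364 of 11628 in luminal cells of tumor-free NMU rats. In luminal cells of ACI rats without an estradiol pellet it called 15 of 13331. One of these 3 was ICAM1 in luminal cells of tumor-free NMU rats, at 5632, 7838 and 14128 in tumor-bearing vehicle rats and 21354, 25364 and 28832 in tumor-free TGFBRi-treated rats (1.55, SE 0.52, limma adjusted p = 0.127, 0.0182 without vehicle rat C5R, and 0.0182 to 0.422 over its 12 alternatives), which differ in tumor status as well as treatment. Another was SELE in luminal cells of tumor-bearing estradiol-treated rats, listed at 0, 12.7, 344 and 600 after vehicle and at 0 and 0 after TGFBRi, with overlap (DESeq2, adjusted p = 0.0495, and 0.0495 to 0.951 over its 12 alternatives).

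In adult virgin rats, the SELE values of basal cells were lower after TGFBRi, without passing the threshold. SELE stood at 143, 171, 475 and 2599 after vehicle and at 0, 61.8, 89.8 and 131 after TGFBRi, without overlap (log2 difference -3.83, SE 1.25, limma, adjusted p = 0.0657). VWF stood at 191, 217, 270 and 495 against 27.4, 29.3, 145 and 266, with overlap (-1.85, SE 0.60, adjusted p = 0.0633). In this comparison 8.73% of 13442 genes passed. In limma 0 of the 5 members passed, and 3 had an unadjusted p under 0.05. SELE passed in DESeq2 on recovered reads (adjusted p = 0.0143). Without TGFBRi-treated rat N1N both passed (adjusted p = 0.0347 for SELE and 0.00934 for VWF), as they did without N1R (0.0438 and 0.0342). Over 15 alternatives the adjusted p was 0.0143 to 0.210 for SELE and 0.00934 to 0.241 for VWF. The differences ran from -4.55 to -2.20 for SELE and from -2.45 to -1.30 for VWF. SELP was 1418, 1940, 4458 and 28105 against 525.9, 1455, 2529 and 3123 (-1.46, adjusted p = 0.323). Vehicle rat N1N gave the highest SELE, SELP and endothelial sum of its group in basal, luminal and CD45+ cells, with SELP at 28105, 14733 and 16197. Of 15 endothelial markers 4 fell (PECAM1 -3.86, CLDN5 -4.12, SOX18 -4.24 and MMRN2 -6.05) and 14 were negative, with a median of -2.59 against -0.25 over all genes, and 5 of 12 other endothelial adhesion genes fell (ICAM2 -5.14, PODXL -4.42, CD34 -4.38, PECAM1 and JAM3). The endothelial sum was 3114 to 42245 after vehicle and 2889 to 8492 after TGFBRi (-0.84 on the log2 scale, exact permutation p = 0.486). The mean of the log2 values of its genes differed by -2.73 (exact permutation p = 0.0571, smallest possible p 0.0286). Their part in the SELE and VWF values was not tested. In parous rats SELE was 65.4, 71.6, 147 and 492 against 184, 211, 319 and 496, and the endothelial sum was 1670 to 5704 after vehicle and 3728 to 9460 after TGFBRi (1.09 on the log2 scale, exact permutation p = 0.114, mean of logs 0.77 with p = 0.371), whose part in the SELE values was not tested. The difference of effect between parous and virgin rats was 4.86 for SELE (SE 1.77, adjusted p = 0.185) and 2.71 for VWF (SE 0.85, adjusted p = 0.124), where 1.04% of genes passed, and VWF passed without TGFBRi-treated rat N1N (adjusted p = 0.0230, and 0.0230 to 0.227 over its 21 alternatives).

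**Figure D5:**
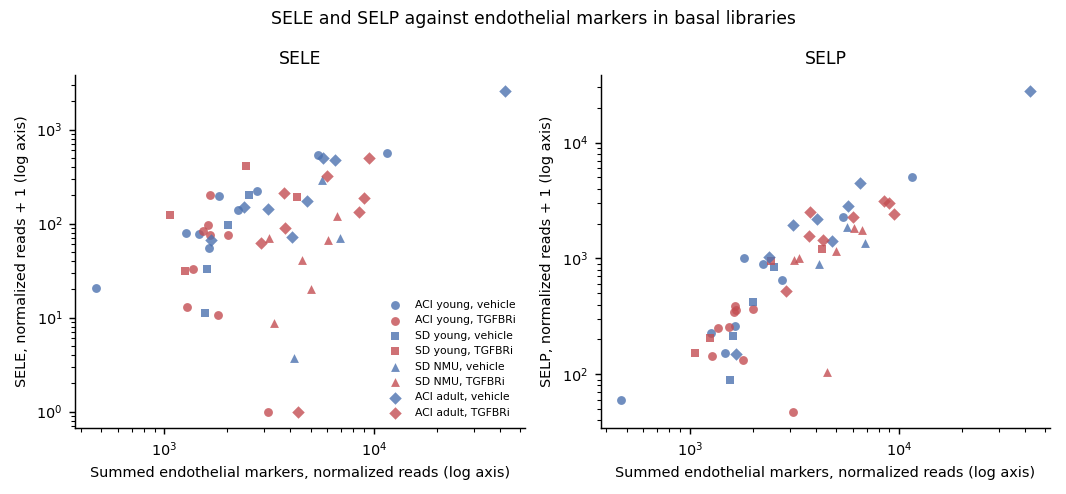
Normalized reads plus 1 of SELE and SELP in 51 basal libraries against the summed endothelial markers of the same library, both on log axes, by experiment and treatment. SELP rises with the endothelial sum over the libraries. The day 0 young ACI libraries are those whose values chose the genes, and nothing is read from their place.

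Across the 51 basal libraries, after subtraction of the mean of each experiment, the level of SELP went with the endothelial sum (Pearson r = 0.77, Spearman rho = 0.75), and less closely that of SELE (0.47 and 0.60), VCAM1 (0.42 and 0.35), VWF (0.42 and 0.37) and ICAM1 (0.26 and 0.23). Without the 2 libraries farthest from the median of the sum, r was 0.66 for SELP, 0.34 for SELE and 0.25 to 0.32 for the others. Of the 51 libraries, 6 are the day 0 libraries of young ACI rats that chose the genes, and without them r was 0.81 for SELP and 0.55 for SELE. Within experiments, r for SELP was 0.89 in adult ACI, 0.74 in young ACI and 0.86 in young SD rats but 0.34 in NMU-treated SD rats. ICAM1 stood at 0.14, 0.40, 0.27 and -0.09 in the same order. These are descriptions, since libraries of 1 treatment group share more than that sum. The genes most similar to each member were taken over the same 51 libraries, the 6 of day 0 included, among 9997 genes, and are a description. SELP was closest to DMBT1, PLVAP, AQP1, LRG1 and CSF3 (r = 0.82 to 0.66) and SELE to SELP, PTPN6, EMCN, AQP1 and PLVAP (r = 0.66 to 0.63), lists that hold the endothelial markers PLVAP and EMCN. VCAM1 was closest to GPC3, CPXM1, LPL, ENPP2 and ZEB1 (r = 0.81 to 0.73). ICAM1 was closest to PBXIP1, SLC37A1, SDC4, ICAM4 and SIDT2 (r = 0.81 to 0.77) and VWF to SORT1, ABCC10, ACSS1, IFNLR1 and SLC1A4 (r = 0.82 to 0.78).

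The sorts themselves divided the members. In vehicle rats of the young ACI experiment, over days and with 9 rats, VCAM1 was higher in basal than in luminal cells (77.4 to 372 against 1.51 to 59.4, log2 difference 2.53, SE 0.51, adjusted p = 0.000469), as was ICAM1 (10784 to 43095 against 4875 to 14053, 1.27, SE 0.29, adjusted p = 0.00165). In this comparison 34.5% of genes passed. SELE (1.67, adjusted p = 0.0784), SELP (1.33, 0.272) and VWF (0.99, 0.112) did not pass. Since both sorts came from the same rats, the fit with the rat as a replicate block pairs them, and in it SELE (adjusted p = 0.0301), SELP (0.0476) and VWF (0.0155) passed as well. These 9 rats include the 3 vehicle rats of day 0 whose basal values helped to choose the genes. With the rats of day 7 and day 14 alone, an alternative added after the data were seen, SELE (adjusted p = 0.401), SELP (0.495) and VWF (0.176) did not pass in the blocked fit, whereas VCAM1 (2.31, adjusted p = 0.0106) and ICAM1 (1.22, adjusted p = 0.0105) did. In young SD rats VCAM1 was 206, 395, 399 and 654 in basal and 12.5 to 57.1 in luminal cells (3.64, SE 0.48, adjusted p = 0.000173), where 54.3% of genes passed. Sorted single cells of ACI vehicle rats read 0.114 to 4.83 CPM VCAM1 in basal and 0.0705 to 0.550 in luminal cells, with overlap. Those of SD vehicle rats read 0.239 to 12.7 and 0 to 0.189 CPM. In the whole gland both epithelial classes stood far below fibroblast-like cells. The part of carried-over cells in the bulk VCAM1 difference was not tested. For ICAM1 in SD rats, basal values ran from 9041 to 24836 and luminal values from 18169 to 22268 (adjusted p = 0.432). SELE, SELP and VWF did not pass in SD rats, and VWF passed without the luminal cells of rat C6N (1.54, limma, adjusted p = 0.0117).

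Of other conditions, VCAM1 in luminal cells of the estradiol experiment stood out. Among vehicle rats it was 32.7, 43.5, 55.4 and 62.3 without a pellet and 233, 265, 561 and 893 with one, without overlap (log2 difference 3.13, SE 0.53, adjusted p = 0.00468), where 1.48% of genes passed. The rats with a pellet bore tumors and those without did not, so that estradiol and tumor status cannot be told apart. In the same comparison GLYCAM1 (4.94, adjusted p = 0.0196) and KRT14 rose and 3 of 6 mature luminal markers fell (CITED1, FOXA1 and PRLR), while 11 of 15 endothelial markers had negative differences with a median of -0.42. GLYCAM1 was also higher in luminal than in basal cells of young SD vehicle rats (basal minus luminal -5.61, limma, adjusted p = 0.0144). The cell source of its RNA was not tested, and in these sorts it is not read as a venular gene. Without a pellet, VCAM1 was 227, 307 and 529 after TGFBRi against the 32.7 to 62.3 of vehicle rats, without overlap (2.80, SE 0.58), which did not pass in limma (adjusted p = 0.456) and passed in DESeq2 (0.00181, and 0.00181 to 1 over its 13 alternatives). SELE and SELP of these luminal libraries ranged widely, with 1 TGFBRi-treated rat at 6495 and 24260 against 0 to 601 and 205 to 3342 in vehicle rats, all without a pellet. In the other 4 comparisons of estradiol or parity among vehicle rats 0 of 20 member tests passed in limma, where 0.0694% of gene tests did, with 3 at an unadjusted p under 0.05 and 0 in DESeq2. In CD45+ cells SELP was 223 to 528 without and 25.9 to 104.1 with a pellet (-2.93, adjusted p = 0.289, and 0.0145 in a model of the 2 groups alone, 0.0145 to 0.532 over its 14 alternatives).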

How the data were processed

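Bulk files held, for each gene, the signal that the authors deposited as counts normalized with DESeq2 (reads aligned to rn6 with STAR 2.5.1b and counted with HTSeq without strand), from which whole reads were recovered in 100% of values (tolerance 0.01). Basal and luminal libraries of the young ACI rats were scaled together by the authors, as were those of the SD rats, and the other sorts apart, so that no level was compared across sorts scaled apart. In 85 libraries of adult and estradiol-treated rats, rows that name no gene held 23.1 to 42.5% of reads and were left out. Single-cell files held raw UMI counts that the authors deposited after filtering (Cell Ranger 4.0.0 and Seurat 4.0.0 for sorted cells, 7.0.0 and 4.1.1 for whole glands); the sorted tables kept cells with keratin reads and no Ptprc. No doublet was removed, and an alternative left out the 6% of cells with the highest Scrublet scores.

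Bulk differences were tested with limma 3.58.1 (trend, robust) on log2(value + 1), for genes summing to at least 10 and with all groups of a sort in 1 model, which understates the change of low genes. The threshold was a Benjamini-Hochberg adjusted p of 0.05. UMIs summed per rat and class were tested with edgeR 4.0.16 (quasi-likelihood, TMM, at least 10 counts, threshold 0.1). Shares were tested by exact permutation over rats. Scripts were tested on simulated data. Whole-gland cells were clustered (scanpy 1.11.5, Leiden resolution 0.8) without the 5 genes, and classes were named from marker lists. Nothing in the labels ties replicates to separate litters, and p-values measure the spread between the rats. Limits that a count of 0 allows (3 counts) and 95% intervals cover counting error only. Basal and luminal cells of 1 rat pair by animal (correlation of deviations -0.0978 to 0.800 in 9 ACI rats). Besides the 5 genes, the text names called genes of the lists, in part as examples chosen with their values known, and the 5 genes of most similar pattern, of which 1 for ICAM1 is not reported here. The members and lists were chosen with earlier results of these data known. Alternatives were DESeq2 1.42.0, a pseudocount of 5, other filters, fits of the compared groups alone, replicate blocks and leaving out each rat.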

Additional observations from a re-analysis of the deposited data

Results flagged for a closer look

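In 5 of 134 groups of 4 to 10 samples, the highest or lowest sample lay farther from its neighbours than Dixon's 95% limit allows on log2(value + 1), where chance alone gives 1 group in 20, or 6.7. In venular-like cells of the whole gland, TGFBRi-treated rat ly11 held the highest VCAM1, at 865 CPM, with the next rat at 399 and the lowest at 298. The same rat held the highest VCAM1 of the whole endothelial-like class, at 437.9 CPM, with the next at 186 and the lowest at 128.5. SELE in basal cells of adult virgin TGFBRi-treated rats was lowest in rat N2N, at 0, with the next at 61.8 and the highest at 131. VCAM1 in basal cells of adult parous TGFBRi-treated rats was lowest in rat P2R, at 125.5, with the others at 574 to 782. SELE in CD45+ cells of tumor-free TGFBRi-treated rats with estradiol was highest in rat A4-15, at 60.6, with the others at 0.748 to 1.76. The causes were not tested.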

How the results depend on the processing

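Of 155 tests of a member between treatments in bulk fractions, limma called 1. Of all gene tests it called 0.0921% in 28 of these comparisons and 1.01 to 8.73% in the others. Tests that an alternative did not cover kept their limma result in the counts that follow. DESeq2 on recovered reads covered 154 tests and gave 5 calls, and models of the 2 groups alone covered 130 and gave 0. The limma shares are no background for DESeq2, which called up to 1688 of 12372 genes, in basal cells of adult virgin rats. A replicate block on the name shared by vehicle and TGFBRi-treated adult rats covered 10 and gave 2. Those rats share only a name (correlations of deviations from -0.108 to 0.116), and the block added VWF in virgin basal cells (adjusted p = 0.0465). Leaving out each rat gave 1 to 3 calls. SELP in CD45+ cells at day 0 stayed at -3.81 in the model of the 2 groups alone, with an adjusted p of 0.0716, and at -4.45 to -3.26 without single rats. Differences between days or parity gave 0 calls, and 0 to 1 without single rats. Basal against luminal gave 3 calls in 10 tests, where 34.5% of all genes passed in ACI and 54.3% in SD rats. It gave 6 with the rat as a replicate block, which changed no other call, and 3 to 5 without single rats, with ICAM1 in ACI at 1.15 to 1.40 and VCAM1 at 2.12 to 2.69 in ACI and 3.24 to 3.94 in SD. Without the basal cells of rat LD2LR, whose name does not follow the pattern of the others, SELE (adjusted p = 0.0256) and VWF (0.0417) passed in ACI, in a fit that holds the day 0 vehicle libraries whose values helped to choose the genes; with the rats of day 7 and day 14 alone they did not pass (0.596 and 0.493, and 0.401 and 0.176 with the replicate block). Estradiol and parity gave 1 call, 2 in models of the 2 groups alone, and 1 to 1 without single rats, with VCAM1 at 2.77 to 3.41. In the comparison of that call 1.48% of all genes passed, and 0.0694% in the other 4. In whole-gland classes 11 of 48 tests passed, and 9 to 16 without single rats, where 4.80 to 43.7% of all genes passed in a class with all rats kept. In capillary-like cells 1347 to 4775 genes were called without single vehicle rats. The endothelial-like class holds the venular-like and capillary-like cells, so that their calls are not separate. Without single rats SELE was 1.06 to 1.63 in venular-like cells and 1.13 to 1.69 in endothelial-like cells, ICAM1 0.63 to 0.81 and 0.56 to 0.78, fibroblast ICAM1 -0.76 to -0.55 and VCAM1 -1.45 to -1.18. In sorted single cells 3 of 17 tests passed, and 1 to 5 without single rats, with ICAM1 in ACI basal cells at 0.45 to 0.64. In SD luminal cells 4654 genes were called with all rats and 3 to 1532 without single vehicle rats. The difference in endothelial share was -5.93 to -1.32 percentage points in the whole gland, 0.213 to 0.599 in ACI and 0.180 to 0.729 in SD basal cells. The summed endothelial markers of young SD basal cells differed by 0.036 on the log2 scale and by -0.183 as a mean of logs, a change of sign (exact permutation p = 0.971 and 0.743). Over all alternatives, 2656 bulk values stayed on the same side of the threshold, among them uncalled values that changed sign (SELE in basal cells of tumor-free NMU rats, -1.38 to 1.77), 21 passed the threshold newly and 1 lost it; in whole-gland classes these were 565, 25 and 20, and in sorted single cells 136, 5 and 12. The causes were not tested. Depth limits SELE, which rested on 0 to 6 reads in the basal libraries of TGFBRi-treated young ACI rats at day 0.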

Other observations

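In the sorted cells of NMU-induced tumors, SELE and SELP overlapped between the treatments. CD45+ cells of tumors held SELP at 14.0, 44.6 and 103.6 normalized reads after vehicle and at 0, 20.9 and 21.0 after TGFBRi, and SELE at 0, 0 and 7.01 against 0, 1.95 and 61.4. EPCAM+ tumor cells held SELP at 347 to 1040 against 236 to 682 and SELE at 7.15 to 519 against 11.2 to 161. None of these passed in limma, as counted above among the 28 further comparisons. ICAM1 in CD45+ tumor cells was 3501, 6687 and 6761 against 1002, 1712 and 4708 (adjusted p = 0.664). Tumor and gland libraries were scaled apart, and their levels were not compared.

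In venular-like cells of the whole gland, where 32.9% of all genes passed, some markers of other endothelial types were called beside the members. Of 7 capillary markers measured there, 5 were higher after TGFBRi (AQP7, CD300LG, CYYR1, FABP4 and RGCC), and of 8 arterial markers 3 were (HEY1, SEMA3G and SOX17). Of 6 lymphatic markers, PROX1 was higher and CCL21 and PDPN were lower.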
